A study of Mus musculus with 19 samples.

Results

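CBFA2T2 is a corepressor of the MTG (ETO) family, whose proteins reach DNA through sequence-specific partner proteins. Its peaks at genes for transfer RNA (tRNA) are described here. The members were all 408 genes that RefSeq annotates as tRNA on mouse chromosomes 1 to 19, X and Y, out of 49943 annotated genes of any type. A tRNA gene was called marked if the summit of a CBFA2T2 peak, the base where the authors' peak caller placed its maximum, lay within 250 bp of the gene or inside it. By this rule 89 of the 408 genes (21.8%) were marked in at least 1 of 2 peak lists.

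The lists came from chromatin immunoprecipitation followed by sequencing (ChIP-seq) in NE-4C, a mouse neural stem cell line without functional p53. In both lines used, the H3.3 gene H3f3a had been knocked out and an HA-tagged H3.3 was stably expressed from a transgene. The tagged histone was wild-type in the H3.3WT line and carried methionine in place of lysine 27 in the H3.3K27M line, and Cbfa2t2 was intact in both. Each list rests on 1 ChIP library called against its input, with 6920 peaks for H3.3WT and 8272 for H3.3K27M, out of 19 libraries in the series. The promoter that drives the transgene and whether a line is 1 clone are not given in the sources used here. Without replicates no difference between the lines could be tested, and every count and fold below describes 1 library a line. Read depth is unknown because the lists hold no counts, and they hold no expression values against which to check the cell type.

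As background, tRNA genes are transcribed by RNA polymerase III (Pol III) from promoters that lie inside the transcribed sequence. The A box and the B box within the gene are bound by the factor TFIIIC, which places TFIIIB just upstream of the start, and TFIIIB recruits the polymerase. Mammalian genomes carry many copies of a tRNA gene for each anticodon, often in clusters, and only a part of them is transcribed in a given cell.

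Where a tRNA gene lies close in front of a protein-coding or other gene, RefSeq promoter sequences of GRCm38.p6 contain it, and 4 of the 408 genes lie whole in such a window. They are printed to show tRNA genes with and without a peak, 2 of each. Each is written 5′ to 3′ on the tRNA strand, and capitals mark 9-base cores of the A box (TNGCNNAGT, searched in the first 30 bases) and the B box (GTTCGANNC, searched from base 40). The arginine gene n-TRtcg5 (chr7:79466419-79466491, plus strand) and the valine gene n-TVcac9 (chr13:23446142-23446214, minus strand) were marked in both lists. The threonine gene n-TTagt9 (chr7:35234770-35234843, minus strand) and the alanine gene n-TAagc16 (chr13:21222586-21222657, plus strand) were marked in neither.
n-TRtcg5: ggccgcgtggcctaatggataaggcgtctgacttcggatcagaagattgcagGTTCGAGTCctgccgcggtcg
n-TVcac9: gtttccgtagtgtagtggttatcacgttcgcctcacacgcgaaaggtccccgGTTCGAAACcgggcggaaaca
n-TTagt9: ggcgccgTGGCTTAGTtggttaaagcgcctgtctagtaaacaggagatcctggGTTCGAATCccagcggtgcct
n-TAagc16: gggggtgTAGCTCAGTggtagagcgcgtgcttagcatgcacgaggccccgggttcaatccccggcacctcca

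Both marked genes hold the B-box core at bases 53 to 61, and the unmarked n-TTagt9 holds it at bases 54 to 62. The A-box core was found at bases 8 to 16 of the unmarked genes n-TTagt9 and n-TAagc16. Searched on both strands, the A-box core occurs in 10.3% of 32817 RefSeq promoter windows and the B-box core in 0.844%. A match describes these letters only and says nothing of occupancy. The searched strings are strict, so a gene without a match may still hold the box with other letters. The missing matches therefore do not set the marked genes apart from the unmarked ones.

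Of the protein-coding promoters that contain a tRNA gene or a part of one and also a CBFA2T2 summit, 3 are printed for the 250 bases before the start site, on the strand of the protein-coding gene, with capitals for bases of the tRNA gene. Polr3e codes for a subunit of Pol III itself, Ndufs7 for a subunit of respiratory complex I, and Polg for the DNA polymerase of mitochondria. They cover chr7:120917528-120917777 (plus strand), chr10:80249199-80249448 (plus strand) and chr7:79466274-79466523 (minus strand).
Polr3e: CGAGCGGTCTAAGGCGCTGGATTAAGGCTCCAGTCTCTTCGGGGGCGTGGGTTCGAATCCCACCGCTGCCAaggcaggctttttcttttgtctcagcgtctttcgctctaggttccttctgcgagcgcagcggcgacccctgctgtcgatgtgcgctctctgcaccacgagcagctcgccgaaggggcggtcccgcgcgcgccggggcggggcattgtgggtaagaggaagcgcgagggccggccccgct
Ndufs7: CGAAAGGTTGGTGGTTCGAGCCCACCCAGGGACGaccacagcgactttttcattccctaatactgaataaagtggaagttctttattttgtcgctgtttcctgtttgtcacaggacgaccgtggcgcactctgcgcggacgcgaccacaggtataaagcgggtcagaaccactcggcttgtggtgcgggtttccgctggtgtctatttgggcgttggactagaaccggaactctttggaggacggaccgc
Polg: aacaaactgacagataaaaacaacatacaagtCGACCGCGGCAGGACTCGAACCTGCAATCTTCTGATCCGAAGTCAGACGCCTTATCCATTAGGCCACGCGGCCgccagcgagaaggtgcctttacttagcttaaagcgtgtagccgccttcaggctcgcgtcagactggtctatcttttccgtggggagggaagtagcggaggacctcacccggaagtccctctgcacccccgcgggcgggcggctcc

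In front of Polr3e, 71 of the 82 bases of the leucine gene n-TLaag4 lie in the window, and the summit of the H3.3WT list is at base 132, between the tRNA gene and the Polr3e start. That peak had a fold enrichment of 3.88 and a −log10 q of 2.68, close to the threshold of the list, and the H3.3K27M list had no summit within 81981 bp. In front of Ndufs7, 34 of the 74 bases of the asparagine gene n-TNgtt7 lie in the window, and the summits are at base 131 in H3.3WT (7.58 fold) and base 178 in H3.3K27M (6.30 fold). The Polg window contains n-TRtcg5 whole, at bases 33 to 105, read on the opposite strand and inside the annotated span of Polg, and the H3.3K27M summit (5.95 fold) is at base 246, nearer to the Polg start than to the tRNA gene. In these windows the summit lay beside the tRNA gene and not on it.

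CBFA2T2 peaks lay at 46 of the 408 tRNA genes in H3.3WT (11.3%, 95% Wilson interval 8.56 to 14.7) and at 72 in H3.3K27M (17.6%, 14.3 to 21.6). The intervals cover counting error only. Other gene classes were counted with the same 250 bp window. Of 3572 genes for small nuclear (snRNA), small nucleolar (snoRNA) and micro RNAs, 2.1% were marked in H3.3WT and 2.24% in H3.3K27M, and of the 1004 snRNA genes alone 4.18% and 4.28%. Protein-coding genes, whose ends hold most peaks of both lists, were marked within 250 bp of either end at 19.6% and 21.9% of 21887 genes. At this window the share of marked tRNA genes lay between those values in both lists. At a window of 1 kb it was 22.5% in H3.3WT, below the 24.8% of protein-coding genes, and 31.1% in H3.3K27M, above their 28.6%. Windows around both ends of a protein-coding gene do not cover the same length of sequence as the window around a tRNA gene.

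Of the marked genes, 29 were marked in both lists, 17 in H3.3WT alone and 43 in H3.3K27M alone. The 29 are 63.0% of the H3.3WT genes and 40.3% of the H3.3K27M genes. A gene marked in 1 list alone was not always without a peak of the other list nearby. Of the 17 genes of H3.3WT alone, 8 had a peak of the other list within 1 kb of their own peak, and of the 43 of H3.3K27M alone, 11 did. The size of the H3.3K27M excess varied with the setting. When the same number of peaks was taken from both lists by −log10 q, 26 genes were marked in H3.3K27M alone and 21 in H3.3WT alone, and with peaks of at least 5 fold these counts were 15 and 12. With a −log10 q of at least 5 they were 31 and 16, and with a window of 100 bp 32 and 15. Protein-coding genes, counted within 250 bp of either end, gave 3669 genes in both lists, 621 in H3.3WT alone and 1118 in H3.3K27M alone. For snRNA genes the counts were 41, 1 and 2, and for miRNA genes 19, 6 and 12.

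The summits were concentrated at the tRNA genes themselves. Within 250 bp of a tRNA gene, the H3.3WT list held 40 summits, or 178 per Mb of such sequence, against 42.9 per Mb at 251 to 500 bp and 9.48 per Mb at 2001 to 5000 bp. The H3.3K27M list held 63 summits, or 280.35 per Mb, against 55.2 per Mb at 251 to 500 bp and 12.1 per Mb at 2001 to 5000 bp. For the 359 tRNA genes over 1 kb from any protein-coding gene end, the densities within 250 bp were 126 per Mb in H3.3WT and 258 per Mb in H3.3K27M, and 11.1 per Mb in both lists at 2001 to 5000 bp. The density was thus lower at 2001 to 5000 bp than within 250 bp in both lists, also for genes over 1 kb from a protein-coding gene end. Of these 359 genes, 27 lie inside a protein-coding gene.

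**Figure D1:**
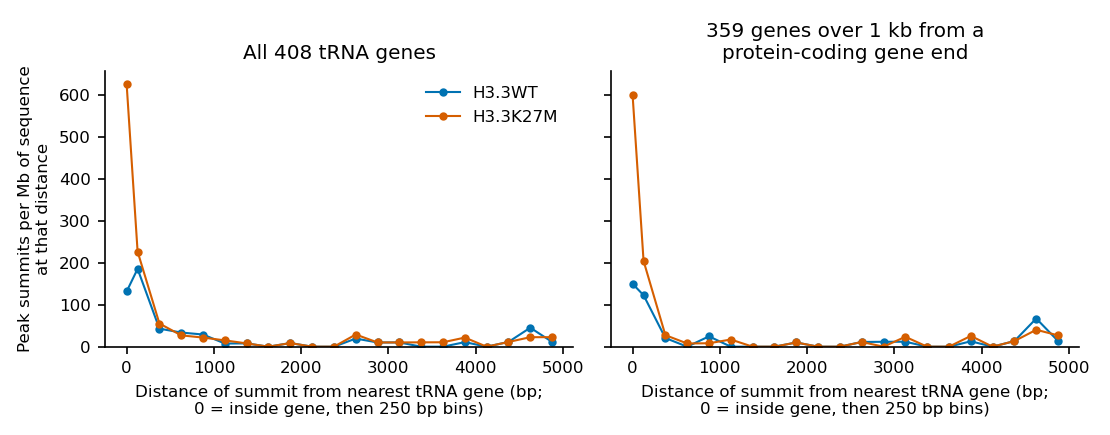
Peak summits per Mb of sequence (y axis) by distance from the nearest tRNA gene in bp (x axis, 0 for summits inside the gene, then bins of 250 bp), for all 408 tRNA genes and for the 359 over 1 kb from a protein-coding gene end; lines join the bins of each list. Summits inside the genes numbered 131 per Mb in H3.3WT and 625 per Mb in H3.3K27M over all genes. Beyond 1 kb the bins hold few summits, and the lines rise again at 4501 to 4750 bp. There H3.3WT has 45.2 per Mb for all genes and 67.1 per Mb for the 359, and H3.3K27M 22.6 and 40.3.

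Summits in the H3.3K27M list lay inside the tRNA gene at 19 of 72 marked genes (26.4%), and those of the H3.3WT list at 4 of 46 (8.70%). The median distance from the gene was 60 bp in H3.3K27M and 76.5 bp in H3.3WT, and tRNA genes are 70 to 107 bases long. For the 29 genes marked in both lists, the summits of the lists were a median of 67 bp apart and at most 266 bp, and 20 of 29 pairs lay within 100 bp. Neighbouring genes that share their peaks count separately here, and the 250 bp rule limits the gap in advance. Of these 29 genes, 8 had the summit inside in H3.3K27M and 2 in H3.3WT. Labels give an average DNA fragment of 300 to 500 bp after sonication, so distances of this size are below the length of a fragment.

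The peaks at tRNA genes were weak for these lists. The 40 H3.3WT peaks had folds of 3.27 to 10.4 with a median of 4.75, while the median of all H3.3WT peaks was 6.21. The 63 H3.3K27M peaks had folds of 2.65 to 9.83 with a median of 4.52, while all H3.3K27M peaks had a median of 5.63. Their median placed them at percentile 24.5 of the folds of the H3.3WT list and 28.1 of the H3.3K27M list. The median −log10 q was 5.71 and 5.69, against 9.64 and 9.48 over all peaks. By contrast, the peaks at snRNA genes had a median fold of 11.9 in H3.3WT (42 peaks) and 11.1 in H3.3K27M (43 peaks). Folds are the peak caller's own values for single peaks, and no ratio between the lists is formed, since each fold depends on the depth of its library.

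In H3.3WT, 31 of the 40 peaks at tRNA genes (77.5%) overlapped a peak of the H3.3K27M list by at least 1 bp, and over the whole list 79.4% did. In H3.3K27M, 31 of 63 (49.2%, interval 37.3 to 61.2) overlapped a peak of the H3.3WT list, and 66.3% over the whole list. The overlapping share rose with −log10 q over all peaks, so each list was divided by −log10 q into 4 bins of equal size. In the lowest bin of H3.3K27M, 8 of 26 peaks at tRNA genes and 31.7% of all peaks overlapped, in the next bin 9 of 22 and 53.6%, and in the bin after that 12 of 13 and 81.2%. In the highest bin both of the 2 peaks at tRNA genes overlapped, and 98.8% of all peaks. In H3.3WT the counts from the lowest bin up were 13 of 18 at tRNA genes against 51.8% of all peaks, 12 of 15 against 73.1%, 5 of 5 against 93.4% and 1 of 2 against 99.5%. The 32 H3.3K27M peaks without a partner had a median fold of 4.18, and the 31 with one 4.98.

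**Figure D2:**
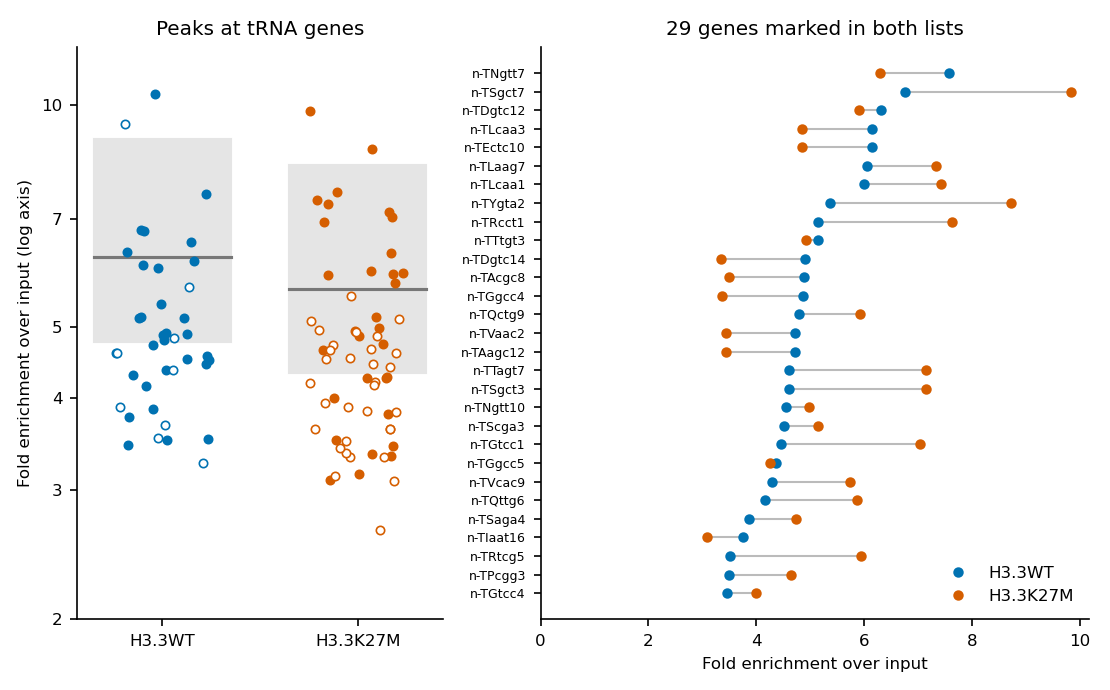
Left, fold enrichment over input (log axis) of each peak at a tRNA gene in the H3.3WT list (40 peaks) and the H3.3K27M list (63 peaks), filled where the peak overlaps one of the other list and open where it does not; the grey box spans the first to the last quartile of all peaks of the list and its line the median (6.21 and 5.63). Right, folds of the 29 tRNA genes marked in both lists, each gene a row with its 2 values joined; most values lie between 3 and 8, and n-TSgct7 reached 9.83 in H3.3K27M.

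Among the 29 genes marked in both lists, folds ran from 3.45 to 7.58 in H3.3WT (median 4.71) and from 3.09 to 9.83 in H3.3K27M (median 5.15). The number was higher in the H3.3K27M list for 17 of the 29. The strongest of them in H3.3K27M was the serine gene n-TSgct7 (chr2:119046750-119046831), at 6.76 fold in H3.3WT cells and 9.83 in H3.3K27M cells, and it lies 288 bp from Knl1, a kinetochore gene. The tyrosine gene n-TYgta2 (chr3:19628782-19628870) had 5.37 and 8.71 fold and lies 15474 bp from the nearest protein-coding gene end. The arginine gene n-TRcct1 (chr6:38533931-38534003) followed with 5.15 and 7.62 fold. In these 3 the value of H3.3K27M was the higher one.

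The leucine genes n-TLcaa1 (chr13:21200204-21200308), at 5.999 and 7.42 fold, and n-TLaag7 (chr13:21170036-21170117), at 6.06 and 7.33 fold, lie on chromosome 13 near Trim27. The H3.3K27M peak at n-TLaag7 also marked the methionine gene n-TMcat15, which was not marked in H3.3WT. On chromosome 1 the glycine gene n-TGtcc1 (chr1:171064699-171064770) had 4.45 and 7.04 fold, with −log10 q of 12.6 and 30.6. The last value was the highest −log10 q of any peak at a tRNA gene in either list. Other genes had the higher number in H3.3WT. The asparagine gene n-TNgtt7 had 7.58 and 6.30 fold, the aspartate gene n-TDgtc12 (chr13:21940319-21940390) 6.31 and 5.90 fold, and the glutamate gene n-TEctc10 (chr11:58302177-58302248) 6.15 and 4.85 fold. At n-TDgtc12 both summits lay on or within 4 bp of the gene.

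The highest folds of the H3.3WT list belonged to genes that were not marked in H3.3K27M. The aspartate gene n-TDgtc8 (chr10:93452978-93453049) had 10.4 fold with its summit 239 bp away, and the H3.3K27M list had a summit 281 bp away, just past the limit. The H3.3WT summit lies towards Lta4h, a gene of leukotriene synthesis, whose end is 347 bp from n-TDgtc8. The valine gene n-TVaac7 (chr11:48856637-48856709) differed from it. It had 9.43 fold and a −log10 q of 21.1 in H3.3WT with the summit 9 bp from the gene, and the nearest H3.3K27M summit was 22266 bp away. No other gene marked in H3.3WT alone with no H3.3K27M peak within 1 kb had a fold over 5.67, the value at the threonine gene n-TTtgt1 (chr14:51088650-51088722). The threonine gene n-TTcgt3 had 4.82 fold, the serine gene n-TSaga9 4.61, the histidine gene n-THgtg4 4.36 and the aspartate gene n-TDgtc15 3.67. Also marked in H3.3WT alone were the tryptophan gene n-TWcca2 (6.75 fold) and the arginine gene n-TRcct5 (6.52 fold). Their nearest H3.3K27M summits lay 552 and 319 bp away.

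Of the genes marked in H3.3K27M alone without a H3.3WT peak within 1 kb, the methionine gene n-TMcat16 (chr15:57975983-57976055) had the highest −log10 q, 10.2, at 4.85 fold, with the summit inside the gene. Its symbol does not tell initiator from elongator methionine tRNA. Next came the histidine gene n-THgtg3 with 4.94 fold, which lies on chromosome 2 beside n-THgtg4. The H3.3WT summit of this pair lay 43 bp from n-THgtg4 and the H3.3K27M summit 83 bp from n-THgtg3. The lists thus marked different copies of the same isotype. How reads that match several copies were treated is not given in the sources used here, and a change of copy was not tested. The lysine gene n-TKctt26 had 4.91 fold, a peak between the glutamate gene n-TEctc6 and the glycine gene n-TGtcc3 had 5.09 fold, and the serine gene n-TSgct5 had 4.64 fold. These H3.3K27M folds were all below 5.63, the median of that list.

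Genes near the limit show how the rule sorts them. In H3.3WT, n-TQctg9 and n-TRtcg5 were just inside, each with a summit 245 bp away and folds of 4.79 and 3.51. The leucine gene n-TLaag6 was just outside at 256 bp, from the same 9.43 fold peak that marked n-TVaac7. In H3.3K27M, n-TTtgt4 was just inside at 246 bp (4.72 fold) and n-TRacg6 just outside at 257 bp (5.27 fold).

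In both lists the share of marked genes was lowest far from protein-coding genes. Of the 49 tRNA genes within 1 kb of a protein-coding gene end, the H3.3WT list marked 15 (30.6%, interval 19.5 to 44.5) and the H3.3K27M list 13 (26.5%, 16.2 to 40.3). At 1 to 10 kb, 22 of 140 (15.7%, 10.6 to 22.6) and 36 of 140 (25.7%, 19.2 to 33.5) were marked. Beyond 10 kb, 9 of 219 (4.11%, 2.18 to 7.62) and 23 of 219 (10.5%, 7.10 to 15.3) were. The 219 include the 48 cysteine genes of chromosome 6, none of them marked, which lower both shares of this class. Whether the decline differed between the lines was not tested. Of the 43 genes marked in H3.3K27M alone, 37 lie over 1 kb from a protein-coding gene end, and of the 17 marked in H3.3WT alone, 9 do.

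For other small RNA genes the share also declined with distance, and each value was below that of the tRNA genes. For snRNA, snoRNA and miRNA genes together the shares in H3.3WT were 11.7% of 265 within 1 kb, 2.38% of 968 at 1 to 10 kb and 0.898% of 2339 beyond 10 kb. In H3.3K27M they were 12.5%, 2.58% and 0.941%. Among snRNA genes beyond 10 kb, 20 of 731 (2.74%) were marked in each list, and these were the same 20 genes.

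**Figure D3:**
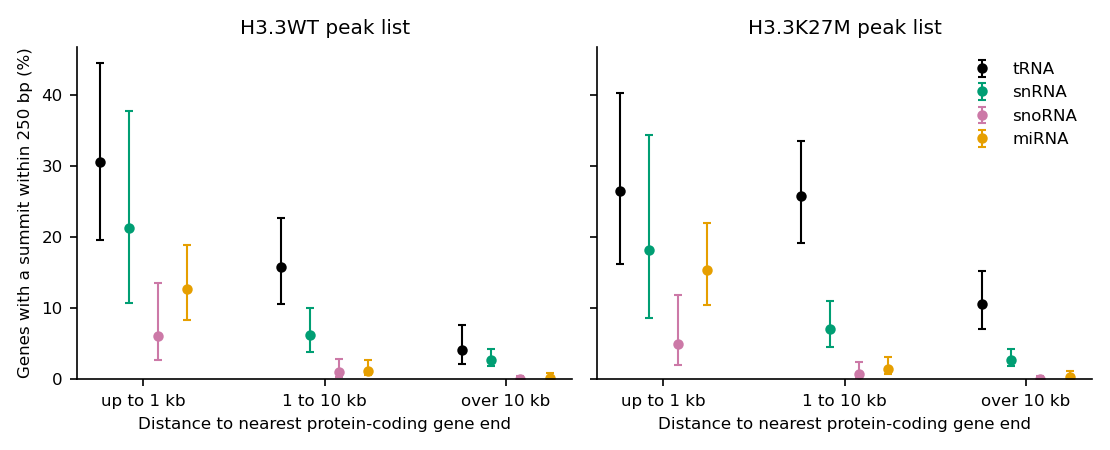
Share of genes with a summit within 250 bp (y axis, percent) by distance to the nearest protein-coding gene end (x axis), for tRNA, snRNA, snoRNA and miRNA genes in each peak list; points are shares and bars 95% Wilson intervals. In H3.3WT the tRNA share falls from 30.6% to 15.7% and 4.11%, and in H3.3K27M from 26.5% and 25.7% to 10.5%.

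Some peaks at tRNA genes were also close to the start of a protein-coding gene. Among H3.3WT peaks at tRNA genes, 10 of 40 (25%) had a summit within 1 kb of a listed protein-coding start, against 60.8% of all peaks of the list. Among H3.3K27M peaks 7 of 63 (11.1%) did, against 59.9%. Starts are listed for 17492 of the 21887 protein-coding genes, so these shares count listed starts only. Median folds were 4.65 near a start and 4.77 elsewhere in H3.3WT, and 5.95 and 4.42 in H3.3K27M.

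Some marked genes were remote from any protein-coding gene end. The alanine gene n-TAcgc8 (chr2:57182078-57182149) lies 34029 bp from the nearest end and was marked in both lists, with a fold of 4.88 for H3.3WT and 3.50 for H3.3K27M. Its H3.3WT summit lies in the RefSeq promoter window of BB557941, a gene not among the listed protein-coding starts. The isoleucine gene n-TItat14 (chr13:21896938-21897031), at 48022 bp, was marked in H3.3K27M alone at 3.32 fold, with a −log10 q of 1.72 near the threshold of the list. The glycine gene n-TGgcc9 (chr3:84229011-84229081), at 68572 bp from a gene end but inside the span of Trim2, was marked in H3.3K27M alone at 4.66 fold. Its summit lies 8151 bp from a listed Trim2 start. In the H3.3K27M list the summits of the latter pair lay inside the tRNA gene.

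By amino acid, marked genes were spread over 19 of the 20 amino acids, with no mark at any of the 7 phenylalanine genes. With a window of 500 bp, 28.6% of the phenylalanine genes were marked in H3.3WT and 14.3% in H3.3K27M. Over the lists together leucine had the highest share, 14 of 26 genes. Its rank comes from H3.3K27M, with 12 of 26, since in H3.3WT its 5 genes (19.2%) were below the shares of tyrosine (30%), aspartate (25%), serine (22.7%), threonine (22.2%) and glycine (21.4%). Glycine followed among the larger families with 11 of 28, the H3.3WT list marking 6 and the H3.3K27M list 9. Aspartate had 6 of 16, proline 6 of 17, tyrosine 4 of 10, serine 6 of 22 and arginine 6 of 24. At the low end stood alanine with 3 of 33, lysine with 2 of 26 and cysteine with 1 of 56. The families are small, and the intervals of most overlap, for example 35.5 to 71.2% for leucine and 23.6 to 57.6% for glycine.

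**Figure D4:**
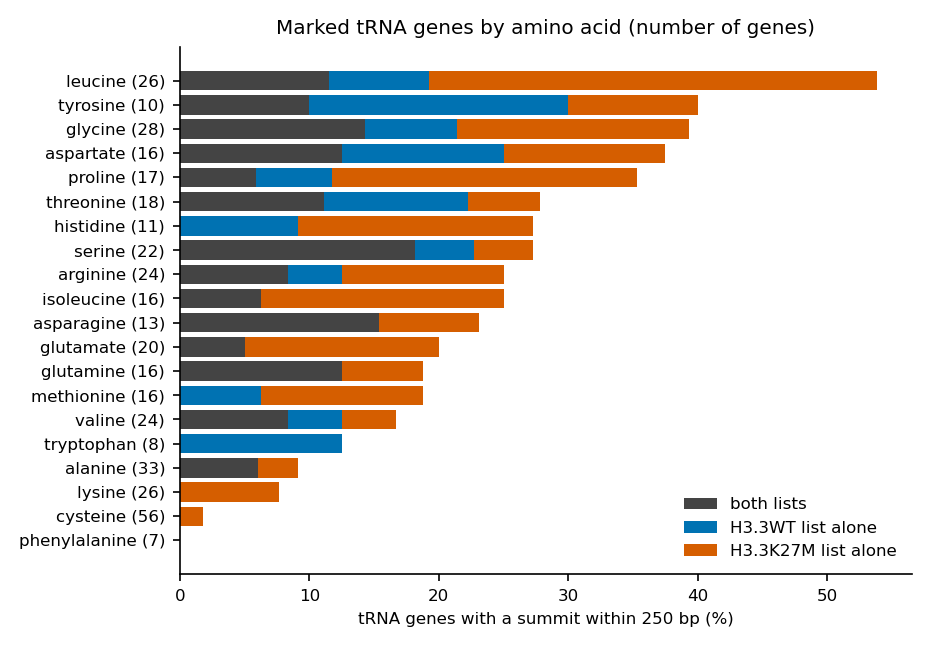
Share of tRNA genes of each amino acid with a summit within 250 bp (x axis, percent), divided into genes marked in both lists, in H3.3WT alone and in H3.3K27M alone; the number of genes stands in parentheses. Leucine is highest with 14 of 26, cysteine has 1 of 56 and phenylalanine 0 of 7.

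Within an amino acid the counts by anticodon are small, and their differences were not tested. Of the 10 leucine genes with anticodon CAG, 5 were marked in H3.3K27M and 0 in H3.3WT. These were n-TLcag4 and n-TLcag5, which share a peak of 5.50 fold on chromosome 8, n-TLcag6 (3.84 fold), n-TLcag10 (3.62 fold) and n-TLcag3 (3.32 fold). The 4 genes with anticodon CAA held 2 marked in both lists, n-TLcaa1 and n-TLcaa3, the latter at 6.15 and 4.85 fold through the peak it shares with n-TEctc10. Of the 6 with anticodon AAG, the H3.3WT list marked 3 and the H3.3K27M list 2. The leucine genes named for their anticodon were chosen with their values known.

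Among glycine genes, 6 of the 7 with anticodon TCC were marked, 3 by the H3.3WT list and 5 by the H3.3K27M list. The genes n-TGtcc1 and n-TGtcc4 were marked in both lists, n-TGtcc3, n-TGtcc5 and n-TGtcc6 in H3.3K27M alone and n-TGtcc7 in H3.3WT alone. Their folds ran from 3.27 at n-TGtcc7 to 4.45 at n-TGtcc1 in H3.3WT, and from 3.83 at n-TGtcc6 to 7.04 at n-TGtcc1 in H3.3K27M. At n-TGtcc5 a H3.3WT summit of 4.20 fold lay 276 bp away, just past the limit. With anticodon GCC, 4 of 14 glycine genes were marked, all 4 in H3.3K27M and 2 of them in H3.3WT. Several of these glycine genes lie in 1 cluster on chromosome 1 and are not independent.

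Cysteine, the largest family, was nearly without marks. Of its 56 genes 48 lie on chromosome 6, and none of these was marked in either list. Of the other 8, n-TCgca54 (chr11:97988923-97988994) was marked in H3.3K27M at 4.16 fold. Without cysteine, the H3.3WT list marked 46 of 352 genes (13.1%) and the H3.3K27M list 71 (20.2%). A region of 229.7 kb (chr6:48133937-48363603) with 48 tRNA genes, 47 of them read as cysteine, held no peak summit of either list. The other, n-Tcgca44, is written like the cysteine genes but with a lower-case c. It was not read as cysteine and counts among the 352. How reads that match several near-identical copies were treated is not given in the sources used here, and its part in the lack of peaks was not tested.

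Counted over all genes, clustered and single tRNA genes had similar shares of marked genes. Most of the cysteine genes of chromosome 6, none of them marked, are among the clustered genes and lower their shares. Neighbouring tRNA genes at most 10 kb apart formed 65 clusters with 297 genes, and 111 genes stood alone. Of the single genes, the H3.3WT list marked 13 (11.7%) and the H3.3K27M list 19 (17.1%), and of the clustered genes 33 (11.1%) and 53 (17.8%). Clusters of 10 or more genes had shares of 4 of 86 (4.65%, interval 1.82 to 11.4) and 9 of 86 (10.5%, 5.60 to 18.7), with 32 of the 86 genes in the cysteine clusters of chromosome 6. At least 1 gene was marked in 23 of the 65 clusters in H3.3WT and 31 in H3.3K27M. Within a cluster 1 peak can mark several genes, as 6 of the 40 H3.3WT peaks and 9 of the 63 H3.3K27M peaks did.

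By the summit rule only some genes of the large clusters were marked, although a peak can also cover a neighbour that was not marked. The peaks of both lists at n-TGtcc1, for example, also cover n-TEctc5. The cluster at chr1:171064164-171081946 has 15 genes for glycine, aspartate, glutamate and leucine, of which 2 were marked in both lists and 2 more in H3.3K27M alone. Of the latter, n-TGtcc5 had a H3.3WT summit 276 bp away. On chromosome 13, the clusters at chr13:21907111-21940995 (15 genes) and chr13:23425646-23453514 (14 genes) had 1 gene marked in H3.3WT, and 1 and 3 in H3.3K27M. They were n-TDgtc12 in the first, and n-TVcac9 in the second with n-TYgta7 and n-TLcag10 added in H3.3K27M, both at 3.62 fold. A compact cluster on chromosome 11 (chr11:69037003-69041897) had 2 of its 7 genes marked in H3.3WT and 5 in H3.3K27M. Over the wider region up to base 69125248, 18 tRNA genes held 6 marked in both lists and 3 in H3.3K27M alone, among them n-TSgct3 and n-TTagt7, which lie at the same peak in each list, at 4.61 fold for H3.3WT and 7.15 for H3.3K27M.

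**Figure D5:**
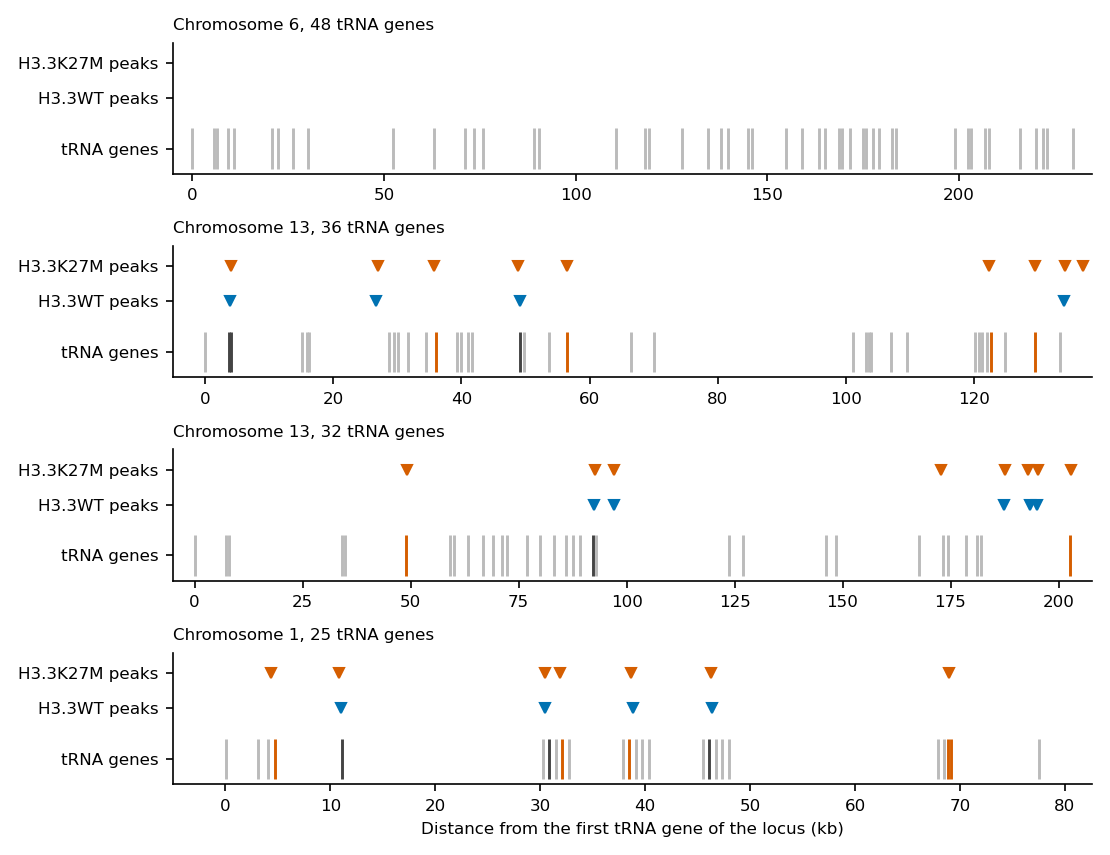
Positions of tRNA genes (bars) and of peaks of both lists (triangles) along 4 large groups of tRNA genes with gaps of at most 50 kb. Triangles stand at the midpoint of each peak and not at its summit, by which genes were marked. A group on chromosome 3 of the same size as the last, 25 genes with 2 marked in each list, is not drawn. The x axis is the distance in kb from the first tRNA gene, shown to 5 kb past either end. Dark bars are genes marked in both lists, orange bars in H3.3K27M alone and grey bars in neither. The 48 genes on chromosome 6 have no summit, while the groups of 36, 32 and 25 genes have 7, 3 and 8 marked genes in H3.3K27M and 3, 1 and 3 in H3.3WT.

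By chromosome, marked genes lay on 16 of the 19 chromosomes that hold tRNA genes. Chromosome 11 had 18 of 52 marked in at least 1 list and chromosome 1 had 10 of 37. Chromosome 13, with 105 genes the richest, had 15. None of the 17 tRNA genes of the X chromosome was marked, nor were the 3 of chromosome 12 or the 2 of chromosome 16.

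Other genes that Pol III transcribes were looked at by the same 250 bp rule. Of the 5S ribosomal RNA genes, 1 of 51 was marked in the H3.3WT list and 3 of 51 in the H3.3K27M list. None of 18 annotated 5S pseudogenes was marked, and none of the 3 annotated U6 genes and pseudogenes was marked in either list. Of 11 further transcripts, 5 were marked in each list. Rpph1, the RNA of ribonuclease P, which trims the 5′ end of tRNA precursors, had 5.53 fold for H3.3WT and 9.05 for H3.3K27M. Rmrp, the related RNA of RNase MRP, had 4.20 and 5.13 fold. Rn7s1, an RNA of the signal recognition particle, had 5.22 and 5.44 fold. Rn7s1, Rpph1 and Rmrp lie 109, 126 and 281 bp from a protein-coding gene end, where peaks of these lists are common. The Y RNA gene Rny1, at 7961 bp, had 4.42 and 5.65 fold. Rny3 was marked in H3.3WT alone at 5.57 fold, and Rn7sk, whose RNA restrains the elongation factor P-TEFb, in H3.3K27M alone at 4.49 fold. These folds lie within the range of the peaks at tRNA genes.

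Genes for the Pol III machinery are protein-coding and were counted with a summit within 1 kb of either end. In each list 21 of 30 had one, against 24.8% of all protein-coding genes by the H3.3WT list and 28.6% by the H3.3K27M list. The list was drawn up with results of these peaks known, so the count is a description. Maf1, the repressor of Pol III, stood far above the rest with 37.9 fold for H3.3WT and 84.7 for H3.3K27M. Of the TFIIIC subunits, Gtf3c2 had 16.8 and 9.49 fold and Gtf3c4 14.5 and 16.3 fold, and Gtf3c1 was marked in H3.3K27M alone at 5.63 fold. Of TFIIIB, Bdp1 had 16.2 and 14.2 fold, and Brf1 was marked in H3.3K27M alone at 3.91 fold. Of the polymerase, the largest subunit Polr3a had 6.23 and 16.8 fold, Polr3b 10.03 and 11.3 fold and Polr3f 12.95 and 8.05 fold. Polr3e had the peak it shares with n-TLaag4, in H3.3WT alone. Polr3k, Gtf3a, Snapc3 and Snapc4 were among the genes without a summit in either list.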

How the data were processed

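Peak lists of the CBFA2T2 ChIP from 1 H3.3WT and 1 H3.3K27M library were used. The build was mm10, Trim Galore was used on the reads and MACS2 called the peaks, per the submitters' processing notes. The versions, the aligner, and the treatment of duplicate and multiply matching reads are not given in the sources used here. Peaks were called per library against input, as the deposited peak names state. The fold, a ratio over the local background, the −log10 p and −log10 q and the score are the authors' deposited values. The score and −log10 p were not used. The smallest deposited −log10 q was 1.33 in H3.3WT and 1.31 in H3.3K27M, so weaker sites are missing. No counts accompany the peaks, and depth is unknown.

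Gene spans came from RefSeq GRCm38.p6, the assembly of mm10, without strand. Summits were assigned in Python 3.11.15 with pandas 2.3.3 and numpy 2.4.6. The assignment was checked on simulated data. A gene took the peak of highest −log10 q among those with a summit within 250 bp. Amino acid and anticodon were read from the gene symbols. For 1 symbol, n-Tcgca44, no amino acid was read because of its lower-case c. Named genes were drawn mainly from the 8 of highest fold per list and the 6 per list of highest −log10 q without the other list within 1 kb. Further sets were the top gene per amino acid, marked genes of the 5 largest clusters, those at the 250 bp limit and the 3 farthest from protein-coding genes. Not every gene of these sets is named. The members and lists were chosen with earlier results of these data known. The Cbfa2t2 knockout, HA, H3K4me3, H3K27me3 and input libraries were not analysed here.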

Additional observations from a re-analysis of the deposited data

How the results depend on the processing

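No paired analysis was possible because each line had 1 library and no replicate. The number of marked genes followed the window and the peak threshold. At 100 bp the shares were 7.11% in H3.3WT and 11.3% in H3.3K27M with 14 genes in both lists, at 500 bp 17.2%, 25.2% and 54, and at 1 kb 22.5%, 31.1% and 76. With any base of a peak over the gene, H3.3K27M had 25.2% and both lists 45. With a −log10 q of at least 5, the shares were 7.60% and 11.3%, both lists had 15 genes, the peaks numbered 26 and 39 and their median folds were 5.15 and 4.94. With at least 5 fold, the shares were 4.66% and 5.39%, both lists had 7 genes, H3.3K27M alone 15, and the peaks numbered 15 and 18. With lists of equal length, H3.3K27M had 12.5% and 26 genes alone. Among genes over 1 kb from protein-coding ends, H3.3WT alone had 9 genes and 25 peaks. With 1 count per group of neighbours, the shares were 20.5% and 28.4% of 176 groups. Of these groups, 10 were marked in H3.3WT alone and 24 in H3.3K27M alone. Clusters with gaps up to 50 kb were marked in 50% and 67.6%, against 35.4% and 47.7% at 10 kb. With overlap counted as summits within 100 bp, 47.5% and 28.6% of peaks overlapped. With distance classes of 500 bp and 5 kb, the middle class of H3.3K27M had 34.7%. In a window of 500 bp the H3.3K27M shares were 45.8% for arginine and 50% for aspartate. Wider windows count more bases and stricter thresholds fewer peaks, and the cause of the other changes was not tested. The other 100 values stayed within 1.5 times for a count or within their interval for a share, which is wide for small families. At 500 bp the H3.3WT share rose from 0 to 28.6% for phenylalanine, from 6.06% to 15.2% for alanine and from 5% to 15% for glutamate. Depth is unknown, so a site in 1 list alone may lie just below the threshold of the other.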
